A study of Mus musculus with 4 samples.

Results

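Mature osteoblasts of the neonatal tibia were compared according to whether they carried the transcript of a Cre reporter that marks hypertrophic chondrocytes (HCs) and the cells that descend from them. The cells came from 1 single-cell RNA library of 1 male mouse at postnatal day 6 (P6), in which the cells of 2 tibiae were pooled, and the 4 sequencing entries of the series hold this 1 library. The mouse was Col10a1Cre;Rosa26-Tdtomato;Irx3 +/Δ;Irx5 +/-. The Cre is driven by Col10a1, the collagen X gene of HCs, and it switches on tdTomato and deletes the floxed Irx3 copy only where it is active, whereas the loss of 1 Irx5 copy is shared by all cells compared here. To count as a mature osteoblast, a cell needed 1600 or more genes, no more than 10% of its UMIs from mitochondrial genes, and no more than 1 UMI of the leukocyte gene Ptprc. Per 10000 UMIs of the barcode it also needed 20 or more Col1a1 UMIs, fewer than 50 Col2a1 UMIs and 3 or more UMIs of Ifitm5, a membrane protein gene of mineralising osteoblasts. A UMI (unique molecular identifier) stands for 1 captured transcript. Of the 14181 barcodes, 348 met this rule. The name mature osteoblast thus rests on Ifitm5 alone. The groups compared were not matched for other late markers, and Bglap and Dmp1 differed between them as given below.

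The groups were chosen by the count of WPRE, the viral element that follows tdTomato in the reporter transcript. The study's limit of more than 14 WPRE UMIs gave 121 reporter-positive cells, which are HC-derived by that criterion, and 0 to 4 UMIs gave 215 reporter-negative cells. The other 12 cells lay in between. The study set its limit to match the share of HCs that it had found tdTomato-positive, which was not all of them. It also could not exclude limits in detecting tdTomato mRNA. The reporter-negative group can therefore hold HC-derived cells. Reporter-positive cells were 34.8% of the mature osteoblasts (exact Clopper-Pearson 95% interval 29.8 to 40.0%). All values come from 1 animal, so no test was made, cells are not replicates, and every interval covers counting error only.

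Osteoblasts build bone by secreting type I collagen and the proteins that mineralise it, among them osteocalcin (Bglap), osteopontin (Spp1) and bone sialoprotein (Ibsp). In a growing long bone they come from the perichondrium and, in part, from HCs that survive at the border of cartilage and bone. Osteocalcin is known as a late product of the osteoblast, while Ibsp is made from the onset of mineralisation and Mmp13, a collagenase, is made by the last HCs and by young osteoblasts next to the cartilage. RUNX2, the master transcription factor of the lineage, binds to a short element in the promoters of several of these genes.

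Promoter sequences are shown for 4 genes of the osteoblast matrix that differed in opposite directions. Spp1 differed by less than 2-fold (log2 ratio -0.87), and Ibsp lay at the 2-fold limit, as given below. Each is the 250 bases before the transcription start in RefSeq (GRCm38.p6), written 5′ to 3′ on the strand of the gene, and capitals mark the RUNX element TGTGGT or its reverse complement ACCACA. Bglap lies on the minus strand (chr3:88384467-88384716), and Mmp13 (chr9:7272264-7272513), Spp1 (chr5:104434861-104435110, the upstream start of 2 listed) and Ibsp (chr5:104299037-104299286) lie on the plus strand.
Bglap: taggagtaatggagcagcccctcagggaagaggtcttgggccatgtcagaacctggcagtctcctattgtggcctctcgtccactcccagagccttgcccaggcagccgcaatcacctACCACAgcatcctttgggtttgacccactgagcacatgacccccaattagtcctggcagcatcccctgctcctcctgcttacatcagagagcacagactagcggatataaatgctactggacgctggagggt
Mmp13: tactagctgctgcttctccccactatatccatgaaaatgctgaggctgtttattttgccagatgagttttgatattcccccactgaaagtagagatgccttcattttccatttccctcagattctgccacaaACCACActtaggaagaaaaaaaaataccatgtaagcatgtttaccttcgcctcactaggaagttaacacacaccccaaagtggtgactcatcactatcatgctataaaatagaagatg
Spp1: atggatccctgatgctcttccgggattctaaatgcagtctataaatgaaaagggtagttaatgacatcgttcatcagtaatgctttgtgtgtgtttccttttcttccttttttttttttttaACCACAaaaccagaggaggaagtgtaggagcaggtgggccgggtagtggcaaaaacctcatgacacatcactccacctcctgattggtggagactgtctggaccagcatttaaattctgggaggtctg
Ibsp: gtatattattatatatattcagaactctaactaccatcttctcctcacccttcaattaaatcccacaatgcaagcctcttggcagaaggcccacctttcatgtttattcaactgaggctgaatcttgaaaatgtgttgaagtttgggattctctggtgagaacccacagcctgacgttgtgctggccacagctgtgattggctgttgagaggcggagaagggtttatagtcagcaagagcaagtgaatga
The element began 132 bases before the start in Bglap, 118 bases before it in Mmp13 and 128 bases before it in Spp1, and the letters do not occur in this window of Ibsp. Of 32851 promoters of this length, 14.05% hold the element on either strand. Bglap and Spp1 were lower and Mmp13 was higher in reporter-positive cells, so a match did not go with 1 direction among these genes. Among the genes described below that had a promoter in the table, it was found in 5 of 16 higher genes and in 5 of 19 lower genes, against 10.8% of the 2006 tested genes with one. Of other genes described below, Bglap3, Col3a1, Postn and Pcolce2 held no match in a listed window, and Dmp1 held 1 at 1 of its listed starts. No sequence is listed for Bglap2 in the table.

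The reporter counts separated the cells into 2 ranges with few between. Reporter-positive cells had 24 to 39 WPRE UMIs between quartiles, a median of 30 and a highest count of 91. In the reporter-negative group 107 cells had no WPRE UMI and 108 had 1 to 4. The nearest cells to the limit from below had 13 and 14 UMIs (1 cell each), no cell had 15, and 2 cells had 16 and 5 had 17. A UMI of tdTomato itself was found in 52 of 121 reporter-positive cells (43.0%, 34.0 to 52.3%) and in 1 of 215 reporter-negative cells (0.465%, 0.0118 to 2.56%). The rule did not use tdTomato, but it lies on the same transcript as WPRE, so it is not an independent check of the groups. At least 1 WPRE UMI was found in 50.2% of reporter-negative cells (median depth 18794 UMIs). The share was 22.1% in leukocytes (Ptprc at 3 or more UMIs and Col1a1 under 20 per 10000, median depth 10679 UMIs). In erythroid cells it was 10.1% (median depth 8110 UMIs). More than 14 WPRE UMIs were found in 16 leukocytes and 11 erythroid cells. Cells with 1 to 4 UMIs were kept in the reporter-negative group, and whether these counts are weak expression or background was not tested.

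**Figure D1:**
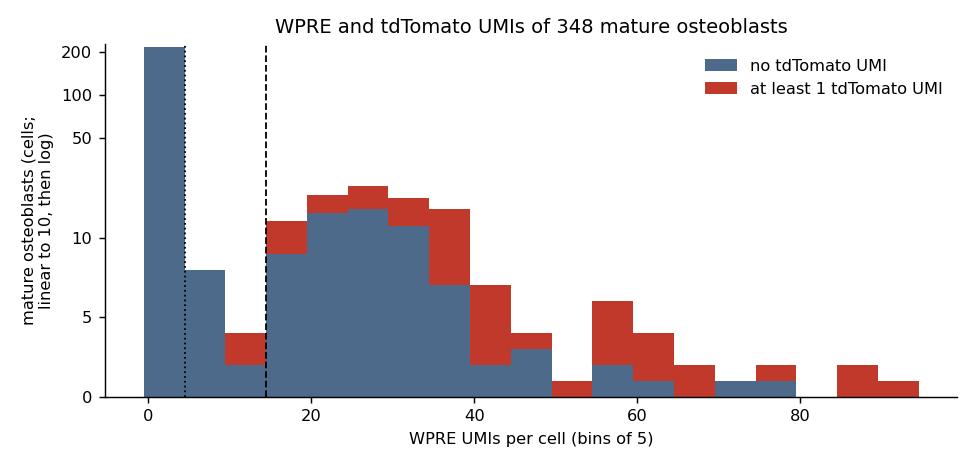
Number of mature osteoblasts (y axis, linear to 10 and logarithmic above) by WPRE UMIs per cell (x axis, bins of 5), with cells that had a tdTomato UMI in red. The dotted line is the upper limit of the 215 reporter-negative cells and the dashed line the lower limit of the 121 reporter-positive cells. Of the 55 cells with tdTomato, 52 lie right of the dashed line.

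The groups were alike in depth, with medians of 19029 UMIs in reporter-positive and 18794 UMIs in reporter-negative cells, and with 3826 and 3596 genes and 4.64% and 4.79% mitochondrial UMIs. Ifitm5, which chose the cells, had a median of 8.56 and 7.33 UMIs per 10000, and Col1a1 of 552 and 708. Both groups carried osteoblast markers, though not all alike. After each cell was thinned to 5000 UMIs, Ibsp was found in 100% and 97.2% of cells, Alpl in 77.7% and 79.9% and Runx2 in 47.1% and 52.8%, against 8.16%, 5.62% and 14.98% of leukocytes. Lower shares of reporter-positive cells held Bglap (30.6% and 75.2%), Bglap2 (29.8% and 67.3%), Sp7 (32.2% and 43.9%), Dmp1 (25.6% and 36.4%) and Phex (36.4% and 38.8%). Higher shares held Smpd3 (83.5% and 72.4%), Col22a1 (91.7% and 82.2%) and Spp1 (96.7% and 93.0%), and all cells held Col1a2 and Sparc. Of the chondrocyte markers, Col9a1, Col9a2, Acan and Matn1 were each found in a smaller share of thinned cells in both groups than in leukocytes (Col9a1 29.8% and 26.2% against 41.8%). The rule limited Col2a1 in the osteoblasts but not in the leukocytes, which reached 1607 Col2a1 UMIs per 10000. These shares therefore cannot show whether the markers were at background. Col10a1, the HC marker, was found in 9.09% and 5.61% of thinned cells against 9.74% of leukocytes, and a single cell held 53.8% of its UMIs in the reporter-positive group. Sox9, also a chondrocyte marker, went the other way and was found in 30.6% and 26.6% of cells, against 11.98% of leukocytes. Of the osteoclast markers, Ctsk was found in 61.2% and 64.95% of thinned cells against 9.36% of leukocytes, Acp5 in 14.9% and 13.6% against 22.5%, and Ocstamp had 1 UMI and 0 UMIs. The endothelial Pecam1 had 7.87 and 33.4 CPM (3.31% and 9.81% of thinned cells against 9.29% of leukocytes), Cdh5 2.25 and 8.11 CPM and Kdr 1 and 10 UMIs. The pericyte marker Acta2 had 29.6 and 4.63 CPM, in 1.65% and 1.40% of thinned cells, and Rgs5 19.5 and 20.6 CPM. The part of such cells in the differences described below was not tested.

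Across 2503 genes with at least 50 counts per 1000000 (CPM) in either group and 100 UMIs in all, 18 genes (0.719%) were at least 2-fold higher and 23 genes (0.919%) at least 2-fold lower in the reporter-positive cells. CPM here is the UMIs of a gene summed over a group per 1000000 UMIs of that group, and the log2 ratio was taken with 1 CPM added. Levels over 7227 genes correlated with a Pearson r of 0.969 on the log2 scale, which is a description across genes of 1 library. The median log2 ratio of the tested genes was 0.15, so ratios are best read against that shift, and centring on it gave 14 higher and 32 lower genes. A single cell held over 10% of the UMIs of the higher group for 4 of the 18 and for 14 of the 23, which leaves 14 higher and 9 lower genes to be described one by one. The 14 higher genes were Clu, Mmp13, Prss50, Pcolce2, Rbp4, Sgk1, Olfml2b, Skap2, Basp1, Slc38a4, Gpx3, Avpi1, Tubb2a and Ibsp. The 9 lower genes were Bglap3, Col3a1, Bglap2, Bglap, Postn, Rpl39l, Dmp1, Thbs2 and Irf1.

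**Figure D2:**
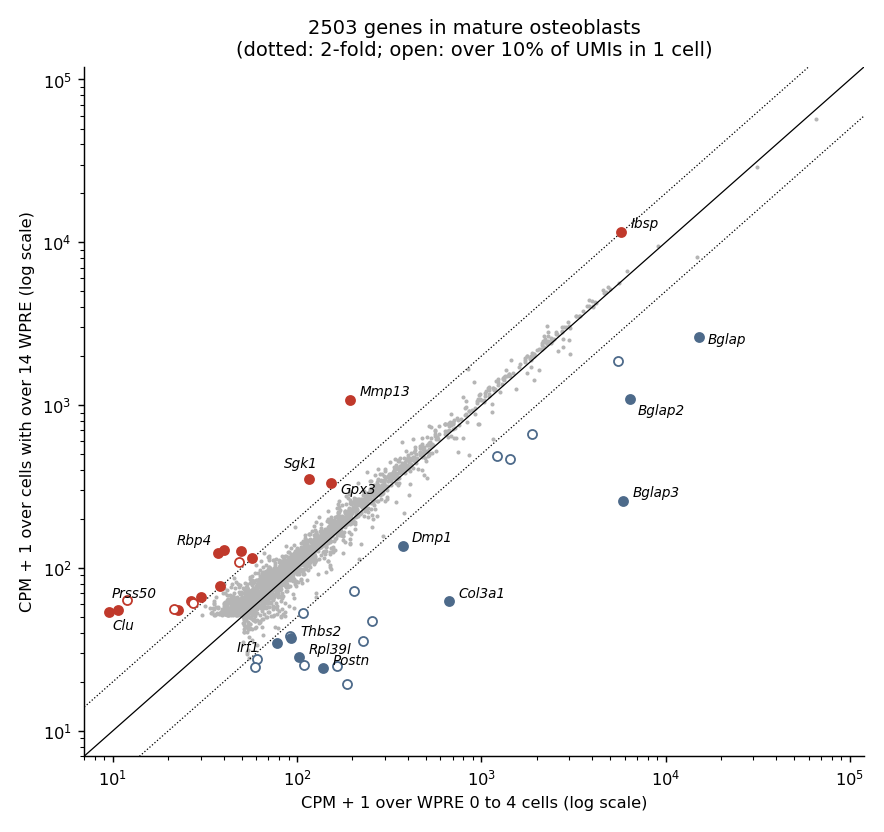
Summed CPM plus 1 of 2503 genes in reporter-negative (x axis) and reporter-positive (y axis) mature osteoblasts, both on log scales. The solid line is equality and the dotted lines are 2-fold. Filled circles are the 14 higher (red) and 9 lower (blue) genes described one by one, with some labels left out for space, and open circles are the 4 and 14 genes of which 1 cell held over 10% of the UMIs. Bglap3 and Col3a1 lie farthest below the line, and Mmp13 lies farthest above it among genes over 1000 CPM.

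The osteocalcin genes were lower, and Bglap3 had the lowest ratio of all tested genes. Bglap (ENSMUSG00000074483, GRCm38 chromosome 3: 88383501 to 88384464, minus strand) stood at 2612 CPM in reporter-positive cells (exact Poisson 95% interval 2551 to 2674) and at 15170 CPM in reporter-negative cells (15054 to 15286). The log2 ratio was -2.54 (counting interval -2.57 to -2.50), or 5.80-fold lower. The difference between typical cells was larger: the median reporter-positive cell had 22.4 CPM (quartiles 0 and 124) and the median reporter-negative cell 2837 CPM (quartiles 105 and 17568). The groups overlapped, and 1 cell held 31.3% of the reporter-positive Bglap UMIs. After thinning to 5000 UMIs, Bglap was found in 30.6% of reporter-positive (22.5 to 39.6%), 75.2% of reporter-negative (68.9 to 80.9%) and 7.19% of leukocytes. Without thinning the shares were 51.2% and 84.7%.

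Expressed as a split at 10 Bglap UMIs per 10000, a limit chosen after the values had been seen, 105 of 121 reporter-positive cells (86.8%, 79.4 to 92.2%) were below it, against 87 of 215 reporter-negative cells (40.5%, 33.8 to 47.4%). Seen the other way, 53.0% of the Bglap-low mature osteoblasts were reporter-positive. The 105 Bglap-low reporter-positive cells had 74.0 CPM of Bglap, between the 13.7 CPM of leukocytes and the 162 CPM of erythroid cells, so this level was not read as expression. The 87 Bglap-low reporter-negative cells had 159 CPM, the 16 Bglap-high reporter-positive cells 16594 CPM and the 128 Bglap-high reporter-negative cells 23843 CPM.

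Bglap2 and Bglap3, the neighbours of Bglap on chromosome 3, were lower too. Bglap2 had 1096 CPM against 6450 CPM (log2 ratio -2.56, -2.61 to -2.50), with a median of 0 CPM in reporter-positive and 1478 CPM in reporter-negative cells. Bglap3 had 258 CPM against 5899 CPM (log2 ratio -4.51, -4.63 to -4.41) and was found in 13.2% against 39.3% of thinned cells. Of the stretches of 91 bases in the Bglap transcript, 60.0% also occur in Bglap2 and 0% in Bglap3, so reads of the first 2 genes cannot always be told apart and their levels are uncertain singly. Among Bglap-low cells alone, which were chosen on Bglap, the log2 ratios were -1.36 for Bglap2 and -1.48 for Bglap3. Bglap2 was there at 55.8 against 145 CPM, beside 57.5 CPM in erythroid cells.

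The acidic matrix proteins Dmp1, Ibsp and Spp1, whose genes lie in 1 cluster on chromosome 5 (104202613 to 104441050), did not differ in 1 direction. Ibsp, which binds collagen and hydroxyapatite, was higher, at 11586 CPM (11457 to 11716) against 5752 CPM (5680 to 5824), a log2 ratio of 1.01 (0.99 to 1.03). Its median was 7521 CPM (quartiles 4468 and 12862) in reporter-positive and 2965 CPM (quartiles 1169 and 7152) in reporter-negative cells, so the lower reporter-positive quartile lay above the reporter-negative median. Spp1, a mineral-binding protein that also tethers osteoclasts, stood at 8093 CPM against 14778 CPM (log2 ratio -0.87, -0.89 to -0.85), with medians of 4627 and 9705 CPM. Dmp1, a matrix protein of late osteoblasts and osteocytes, had 136 CPM against 375 CPM (log2 ratio -1.46, -1.63 to -1.30) and was found in 25.6% against 36.4% of thinned cells, with overlapping intervals. Ibsp sat at the 2-fold limit and passed it in 11 of 23 other settings, with a log2 ratio of 0.36 among Bglap-low cells. Dmp1 passed it in 18 of them.

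**Figure D3:**
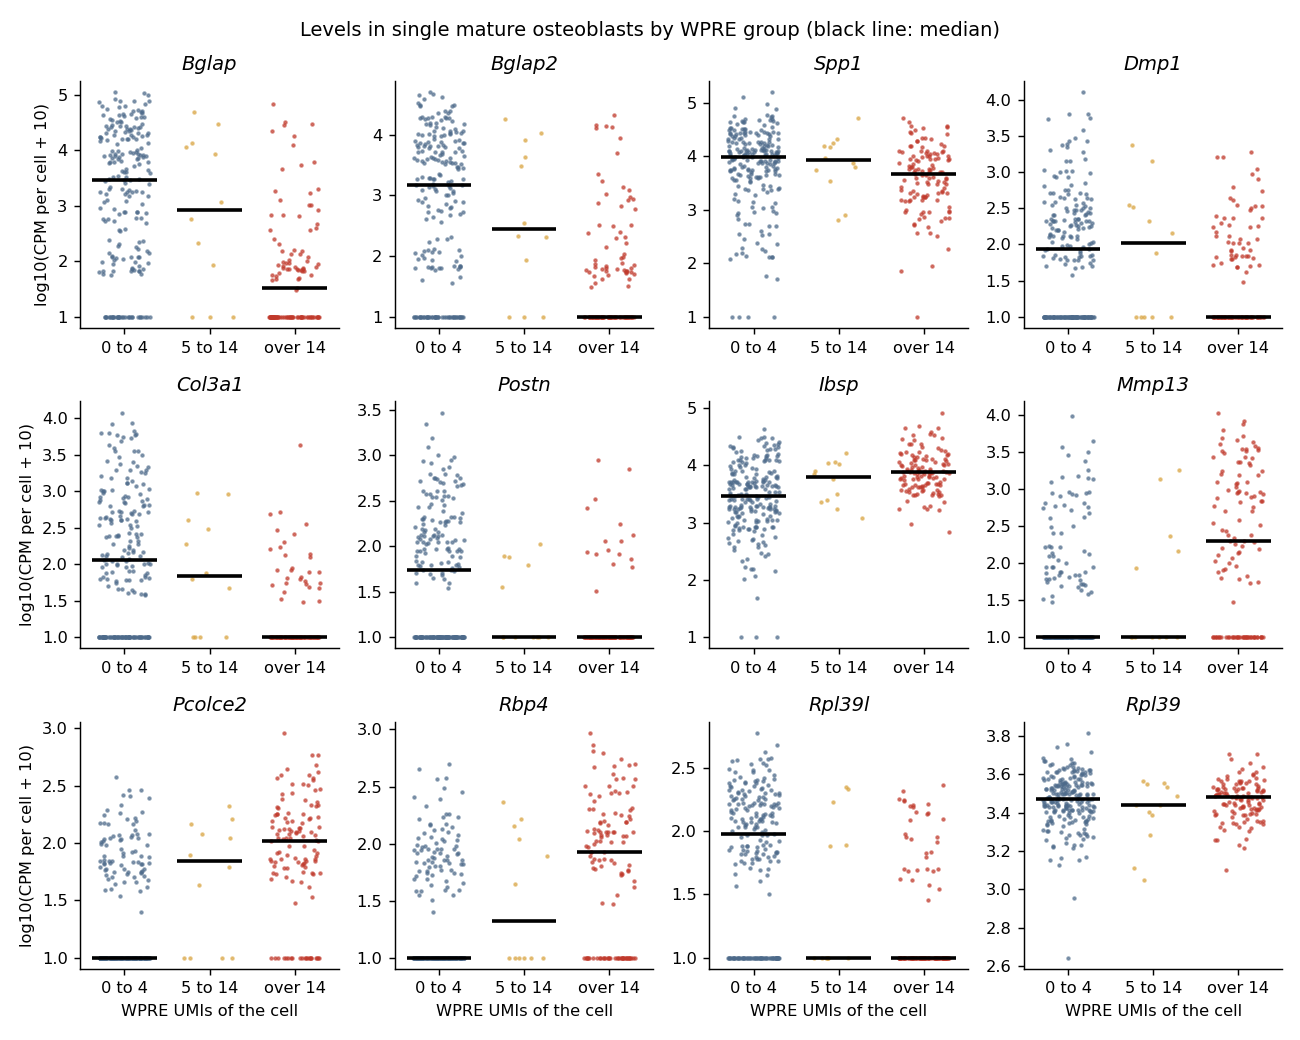
Level of 12 genes in single mature osteoblasts, as log10 of CPM per cell plus 10 (y axis), for cells with 0 to 4 (blue), 5 to 14 (orange) and over 14 WPRE UMIs (red). Each point is 1 cell and black lines are medians. The median Bglap level is 2837 CPM in the first group and 22.4 CPM in the last, Mmp13, Pcolce2 and Rbp4 have medians of 0 CPM in the first, and Rpl39 is level.

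Of 39 osteoblast matrix and mineral genes, 31 were tested, 2 were called higher and 3 lower, and the median log2 ratio was -0.09, against 0.15 over all tested genes. The called shares over all tested genes were 0.719% and 0.919%. The 2 higher genes were Ibsp and Pcolce2, and the 3 lower ones were the osteocalcin genes. The main structural genes were close in the groups: Col1a2 had 57065 and 65132 CPM (log2 ratio -0.19), and Sparc, which encodes osteonectin, had 29183 and 31271 CPM (-0.10). Alpl, the phosphatase that frees phosphate for mineral, had 522 and 508 CPM, Smpd3 476 and 445 CPM, Col22a1 572 and 515 CPM, and Car3 915 and 858 CPM. The study named Ibsp and Car3 among genes higher in HC-derived osteoblasts. It compared osteoblasts of all stages, from this age and from adult mice together, whereas Car3 had a log2 ratio of 0.09 in the cells used here. The small leucine-rich proteoglycan genes Dcn (2075 and 3026 CPM, log2 ratio -0.54), Fmod (-0.66) and Bgn (-0.32) lay lower, within 2-fold.

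Mmp13 (chromosome 9: 7272514 to 7283331, plus strand), the collagenase that opens cartilage and bone matrix, had the largest ratio of the higher genes beside Clu. It stood at 1080 CPM (1041 to 1121) in reporter-positive and 194 CPM (181 to 207) in reporter-negative cells, a log2 ratio of 2.47 (2.37 to 2.59). The upper quartile was 1229 CPM in the first group and 59.1 CPM in the second, and Mmp13 was found in 57.9% (48.5 to 66.8%), 20.6% (15.4 to 26.6%) and, in leukocytes, 7.49% of thinned cells. Within the reporter-positive cells, Mmp13 was at 1205 CPM in those that were Bglap-low and 395 CPM in the 16 that were Bglap-high. Those 16 cells had a median of 0 CPM and an upper quartile of 187 CPM. Within the reporter-negative cells Mmp13 was at 409 CPM in Bglap-low and 69.1 CPM in Bglap-high cells. Among Bglap-low cells alone the log2 ratio was thus 1.56.

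Mmp13 was the only gene called in its list. Another matrix proteinase gene, Mmp9, had a log2 ratio of 2.04 but was under the minimum for testing. Its ratio ranged from -0.59 to 4.71 over 23 other settings. Of 36 matrix proteinase, inhibitor and PTH pathway genes, 22 were tested, 1 was called higher and 0 lower, with a median log2 ratio of 0.06, or -0.09 after centring on the median of all genes. The called shares over all tested genes were 0.719% and 0.919%. Mmp14, the membrane-bound proteinase on which the study centres, had 172 CPM (157 to 189) against 205 CPM (192 to 219), a log2 ratio of -0.25. Pth1r, the receptor of parathyroid hormone, had 452 CPM (427 to 479) against 350 CPM (333 to 368), a log2 ratio of 0.37. Among Bglap-low cells alone Pth1r had 478 against 449 CPM (log2 ratio 0.09), and Mmp14 had 178 against 258 CPM. Over 23 other settings the Pth1r ratio ranged from 0.09 to 0.46 and the Mmp14 ratio from -0.62 to 0.07. Mmp2 had 396 and 475 CPM, Timp1 1079 and 996 CPM, and the serine proteinase Htra1 122 and 65.3 CPM (log2 ratio 0.89).

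Several secreted or lipid-related genes were also higher. Pcolce2, which enhances removal of the C-terminal propeptide of fibrillar procollagens, had 123 CPM (110 to 137) against 36.4 CPM (30.9 to 42.5), a log2 ratio of 1.73 (1.48 to 2.04). It was detected in 39.7% against 14.95% of thinned cells, and its ratio stayed between 1.52 and 2.09 in all 23 other settings. Its paralogue Pcolce had 1264 and 1544 CPM. Rbp4, the carrier of retinol, had 128 CPM against 39.1 CPM (log2 ratio 1.68, 1.44 to 1.98), and Clu, an extracellular chaperone, had 52.5 CPM against 8.57 CPM (log2 ratio 2.48, 2.08 to 3.18). Sgk1, a kinase induced by steroid hormones and stress, had 351 CPM against 115 CPM (log2 ratio 1.60, 1.45 to 1.76). Gpx3, a secreted glutathione peroxidase, had 330 CPM against 153 CPM (log2 ratio 1.11), and Serpine2, a protease inhibitor just under the 2-fold limit, had 1666 CPM against 844 CPM (0.98). Prss50 was at 54.0 CPM against 9.73 CPM (log2 ratio 2.36), Olfml2b at 126 against 48.4 CPM (1.36) and Slc38a4, an amino acid transporter, at 65.6 against 28.96 CPM (1.15). Skap2 and Basp1 were also higher (1.30 and 1.25), and leukocytes held more of both, at 116 and 165 CPM, than either group. Avpi1 and Tubb2a were at the limit, both with 1.02.

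Genes of fibrous matrix were among the lower genes. Col3a1 (chromosome 1: 45311538 to 45349706, plus strand), the collagen of loose and periosteal connective tissue, had 61.5 CPM (52.4 to 71.6) against 667 CPM (643 to 692), a log2 ratio of -3.42 (-3.68 to -3.21). The upper quartile was 20.4 CPM in reporter-positive and 665 CPM in reporter-negative cells, and 9.09% and 51.9% of thinned cells held a UMI, against 7.94% of leukocytes. A single cell held 48.8% of the reporter-positive UMIs. Postn, or periostin, named for the periosteum, had 23.2 CPM against 138 CPM (log2 ratio -2.52, -2.97 to -2.19) and was found in 7.44% and 32.2% of thinned cells. Thbs2, a matricellular thrombospondin, had 36.4 against 91.7 CPM (log2 ratio -1.31). Over all tested genes 0.919% were called lower and 0.719% higher, 78.5% had a log2 ratio above 0 and the median was 0.15. Of 50 periosteal and fibrous genes, 26 were tested, 5 were called lower and 1 higher, and 21 of the 26 had a log2 ratio below 0 with a median of -0.48. The other lower genes were Igfbp5 and S100a4, for which 1 cell held 18.1% and 35.9% of the reporter-negative UMIs. The higher one was Eln, of which 1 cell held 93.4% of the reporter-positive UMIs. Tnc (log2 ratio 0.44) and Col12a1 (-0.10) were within 2-fold. The list was chosen with earlier results of these data known, so its counts are not an independent result. The study had named Postn, Igfbp5 and Col3a1 as higher in osteoblasts not derived from HCs, over cells of this age and of adult mice together.

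Part of these differences was also found among Bglap-low cells. Bglap itself, on which these cells were chosen, was at 74.0 against 159 CPM (log2 ratio -1.09). Both levels lay under the 162 CPM of erythroid cells, so this ratio was not read as a difference. Among the Bglap-low cells the log2 ratio was -3.37 for Col3a1, -2.89 for Postn and -1.21 for Thbs2. It was 1.56 for Pcolce2, 1.41 for Rbp4, 1.25 for Sgk1 and 2.19 for Clu. In these 105 reporter-positive and 87 reporter-negative cells, 12 genes were called higher and 32 lower. Of the 18 higher and 23 lower genes of the full groups, 10 and 20 were called again there. The Bglap-low cells are part of those full groups, so the repeated calls are not an independent result. The 20 lower genes called again comprise 9 neutrophil and haemoglobin genes, the 3 osteocalcin genes that the split itself concerns, and 8 others. Of the 18 higher genes, Ibsp, Gpx3, Skap2, Basp1, Slc38a4, Avpi1, Tubb2a and Ackr3 were not called again, with ratios of 0.36 to 0.95. Within the reporter-negative cells, Col3a1 was at 747 CPM in Bglap-low and 621 CPM in Bglap-high cells, with medians in the other order (68.8 and 171 CPM). Ibsp was at 10045 and 3271 CPM in the same cells. Ibsp thus went with low Bglap in each group, with 12923 and 4223 CPM in the reporter-positive cells. Sparc went the other way, at 26148 and 45898 CPM in reporter-positive and at 22079 and 36582 CPM in reporter-negative cells.

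Levels were also compared over steps of WPRE. Col3a1 was at 835 CPM in the 107 cells with no WPRE UMI, 533 CPM in the 108 cells with 1 to 4, 277 CPM in the 12 cells with 5 to 14, 107 CPM in the 56 cells with 15 to 29 and 32.4 CPM in the 65 cells with 30 or more. In the group with 15 to 29, however, 1 cell held 80 of the 111 Col3a1 UMIs, and without it the level was 30.5 CPM, next to 32.4 CPM in the last group. Ibsp was at 4696, 6599, 6617, 9160 and 13120 CPM over the same steps. Bglap was at 16616, 14008 and 14344 CPM below the limit and at 1023 and 3617 CPM above it. Mmp13 was at 272, 131 and 253 CPM below the limit and 986 and 1140 CPM above it. In the 12 cells in between, 1 cell held 52.8% of the Bglap UMIs, and without it Bglap was at 8047 CPM. In the group with 15 to 29, Bglap was at 397 CPM without the cell that held most of it. In summed level, the 12 cells in between were thus nearer to the reporter-negative cells in Bglap and Mmp13. By cell they were mixed, and 6 of the 12 were Bglap-low. Those with 5 or 6 WPRE UMIs had 8568 to 47786 CPM of Bglap and no Mmp13 UMI. Those with 7 to 14 had 0 to 13326 CPM of Bglap and 0 to 1795 CPM of Mmp13. The summed levels therefore do not place the cells next to the limit.

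**Figure D4:**
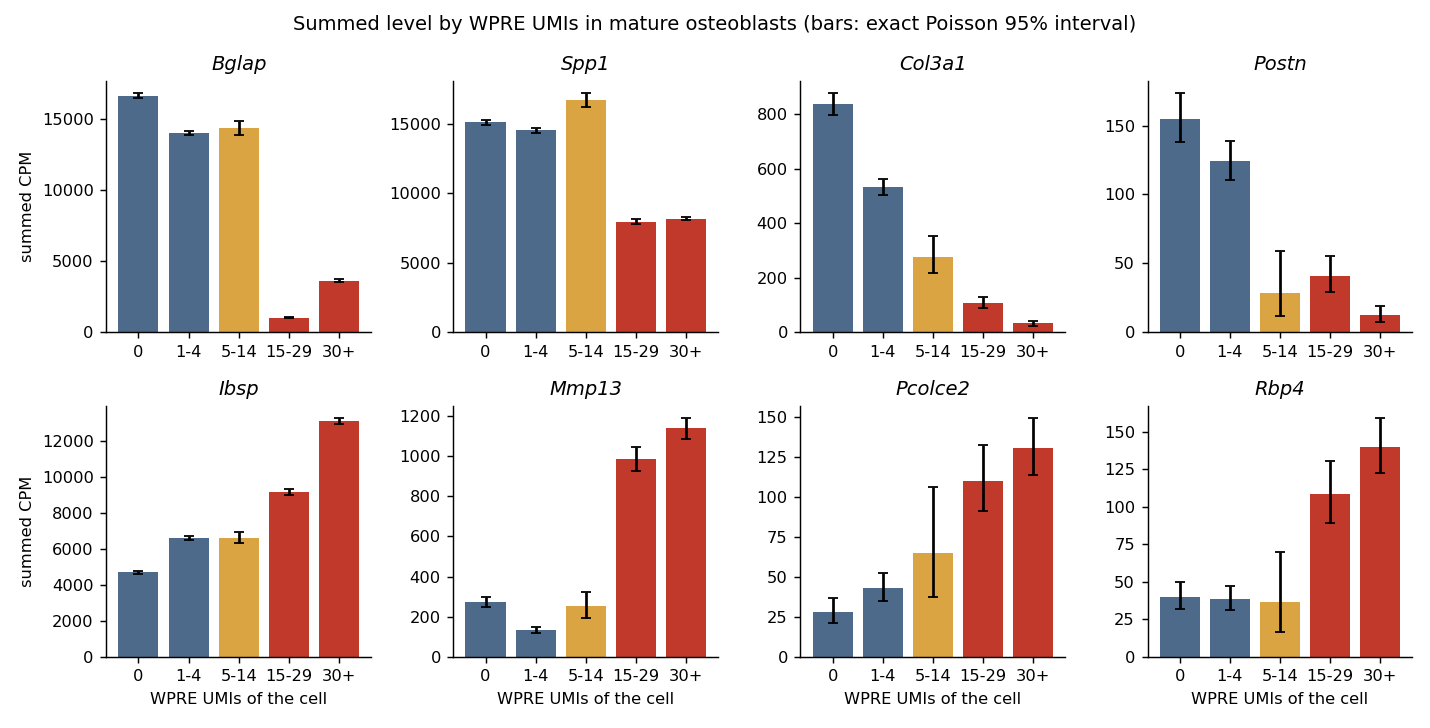
Summed CPM (y axes, each from 0) of 8 genes in mature osteoblasts by WPRE UMIs of the cell (x axis), with 107, 108, 12, 56 and 65 cells from left to right. Error bars are exact Poisson 95% intervals, which cover counting error only. Bglap and Spp1 are lower and Mmp13 and Rbp4 higher above 14 UMIs, and each Col3a1 bar is lower than the one before. Its bar at 15 to 29 is 30.5 CPM without 1 cell, so the last step rests on that cell.

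A paralogue of a ribosomal protein gene stood apart from its family. Rpl39l had 27.4 CPM (21.4 to 34.4) in reporter-positive and 102 CPM (92.4 to 112) in reporter-negative cells, a log2 ratio of -1.86 (-2.27 to -1.53), and was found in 9.09% and 38.3% of thinned cells. Rpl39 itself had 2982 and 3028 CPM (-0.02), and the transcripts share no stretch of 91 bases. Of 81 tested cytosolic ribosomal protein genes, Rpl39l alone was called, and the family median was 0.10, or -0.05 after centring on the median of all genes.

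Iroquois genes were measured because both are altered in this mouse. Irx3, of which 1 copy is deleted by the Cre, had 51.4 CPM (43.1 to 60.7) in reporter-positive and 82.7 CPM (74.3 to 91.7) in reporter-negative cells, a log2 ratio of -0.68 (-0.98 to -0.40). Its medians were 30.5 and 53.1 CPM, and it was found in 22.3% and 28.0% of thinned cells, with overlapping intervals. Irx5, heterozygous in all cells, had 83.6 CPM (73.0 to 95.3) and 59.8 CPM (52.7 to 67.5), a log2 ratio of 0.48 (0.22 to 0.75). Its direction was the same in 22 of 23 other settings, and the ratio was -0.93 in cells below the median depth. Irx3 kept its direction in all 23, with ratios of -1.20 to -0.25. In reporter-positive cells the genotype at Irx3 and the origin of the cell cannot be told apart, since the same Cre sets both.

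In other gene groups few genes were called. Over all tested genes 0.719% were called higher and 0.919% lower, so 0 called genes in a short list says little about that list. Of the osteoblast transcription factors, 17 were tested and 0 were called in either direction: Runx2 had 141 and 147 CPM, Sp7 102 and 113 CPM, and Zfhx4 41.6 and 77.8 CPM (log2 ratio -0.89). Of 7 tested osteocyte genes, Dmp1 was lower and Ackr3, a scavenger receptor of CXCL12, was higher (108 against 47.5 CPM), with 10.5% of its UMIs in 1 cell. Sost had 0 UMIs in reporter-positive cells, which allows up to 1.12 CPM, and 17 UMIs (3.94 CPM) in reporter-negative cells, 52.9% of them in 1 cell. Of 14 tested HC genes, Mmp13 and Ibsp were higher and Dmp1 lower, and the channel gene Panx3 had a log2 ratio of 0.76, Vegfa of 0.16 and Sox9 of -0.02. Of 26 tested immediate early genes, 0 were called, and Fos (620 against 1154 CPM, log2 ratio -0.90), Egr1 (492 against 860 CPM, -0.81), Socs3 and Klf2 lay lowest. Of 20 tested genes of the unfolded protein response, 18 had a log2 ratio above 0, as did 78.5% of all tested genes, with a median of 0.23 against 0.15 over all genes. Genes of S and G2/M phase had a median of -0.34 over 11 genes, with Mki67 at 32.6 and 60.0 CPM. Of 4 tested Wnt pathway, 10 BMP and TGF-beta pathway and 4 Notch and hedgehog pathway genes, 0 were called. Hif1a had 104 and 58.8 CPM (log2 ratio 0.81), and the glycolysis list had a median of 0.17 over 17 genes, against 0.15 over all genes. Of the 6 tested marrow adipocyte genes, 2 were called higher, Rbp4 and Cxcl12, and 67.7% of the Cxcl12 UMIs of the reporter-positive group came from 1 cell.

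Blood genes were 9 of the 23 lower genes. The 5 neutrophil genes Camp, Stfa1, S100a8, S100a9 and BC100530 had log2 ratios of -2.11 to -3.27, and a single cell held 79.7 to 91.2% of their UMIs in the reporter-negative group. The 4 haemoglobin genes had log2 ratios of -1.31 to -1.63. Over 50 haemoglobin UMIs per 10000 were found in 3 reporter-positive and 11 reporter-negative cells, while the medians of the groups were 3.40 and 3.76 per 10000. Summed over 30 leukocyte genes, single cells ranged from 0 to 3634 CPM and from 0 to 111116 CPM, with medians of 186 and 176 CPM. Leaving out these cells and 1 cell with over 20 S100a8 and S100a9 UMIs per 10000, a choice made after seeing the data, left 17 higher and 13 lower genes, and Hbb-bs at -0.32, S100a8 at 0.10 and Camp at 0.15. All 13 were among the 23, and none of them was a blood gene. As cells were left out for their haemoglobin, S100a8 and S100a9 UMIs, the change in those genes was set by the choice itself. Scrublet marked 2 of the 348 cells as doublets.

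The same contrast was made in 709 cells that met the rule but for Ifitm5 under 3 per 10000, of which 55 were reporter-positive and 641 reporter-negative. These cells were shallower and differed in depth, with medians of 14481 and 10226 UMIs. Their Col1a1 medians were 55.1 and 95.2 per 10000, against 552 and 708 in the mature osteoblasts. Of the 50 periosteal and fibrous genes 45 reached the minimum of 50 CPM here, with a median log2 ratio of -2.10. Without Ifitm5 the rule does not single out osteoblasts, and the mix of cell types in the groups was not tested. The contrast may therefore compare other kinds of cells than in the mature osteoblasts. Of 3142 genes tested, 92 (2.93%) were at least 2-fold higher and 214 (6.81%) at least 2-fold lower in reporter-positive cells. Both comparisons drew on different cells of the same library. Of the 18 genes higher in reporter-positive mature osteoblasts, 9 were also called higher there and 1 lower, and of the 23 lower genes 10 were called lower and 1 higher. Mmp13 (4487 against 1324 CPM), Clu and Sgk1 were higher and Col3a1 (298 against 6321 CPM), Postn (117 against 1351 CPM), Thbs2 and Rpl39l lower in both.

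In summed level, Bglap and Bglap2 were within 2-fold in the Ifitm5-low cells. Most of these cells were Bglap-low, with 53 of 55 reporter-positive (96.4%) and 574 of 641 reporter-negative cells (89.5%) under 10 Bglap UMIs per 10000. The summed levels therefore need not describe the typical cell. Bglap had 1213 and 1145 CPM (log2 ratio 0.08) and Bglap2 487 and 546 CPM (-0.16), whereas Spp1 (28158 against 9700 CPM, log2 ratio 1.54) and Dmp1 (596 against 98.6 CPM, 2.58) were higher in reporter-positive cells, opposite to the mature osteoblasts. Ibsp was higher in both (7180 against 968 CPM, log2 ratio 2.89). Pcolce2 was at 36.7 and 27.6 CPM (0.40) and Prss50 at 44.8 and 4.25 CPM, both under the minimum of 50 CPM. Whether these ratios differ between the populations was not tested, as the library is single. Of the members next to the Ifitm5 limit, 22 cells had 3.0 to 3.5 UMIs per 10000, 5 of them reporter-positive, and of the 20 cells with 2.5 to 3.0 just outside it 6 were reporter-positive.

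**Figure D5:**
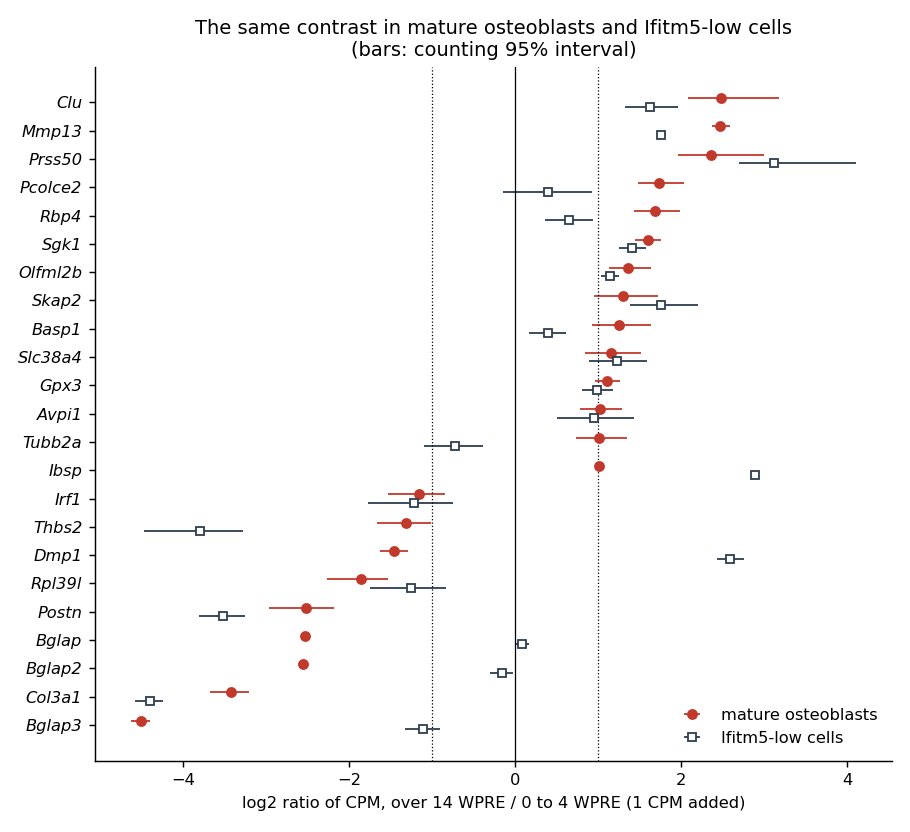
Log2 ratio of CPM, reporter-positive over reporter-negative with 1 CPM added (x axis), for the 23 genes described one by one, in mature osteoblasts (red circles) and in Ifitm5-low cells (open squares). Bars are counting 95% intervals and dotted lines mark 2-fold. Dmp1 lies at -1.46 and 2.58, Bglap at -2.54 and 0.08, and Mmp13 and Col3a1 keep their direction.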

How the data were processed

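Per the labels and the methods of the study, the authors aligned reads to mm10 and to the sequences of tdTomato and WPRE with Cell Ranger. The submitters' processing notes name Cell Ranger 3.1.0 and Seurat 3. An annotation release was not given in the sources used here. Deposited by the authors were counts, as whole numbers of UMIs per gene and barcode without normalization, for 14181 barcodes and 31053 genes (158281984 UMIs, median 8235 per barcode), and a second count matrix of 98 exogenous sequences, joined here by barcode. All 14181 barcodes were found in it. Gene positions are from GENCODE M21 (GRCm38, the build of mm10), where 30934 identifiers matched.

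The rule for the cells, the gene lists and the tests were chosen with earlier results of these data known. UMIs were summed per group and given as CPM. The interval of a ratio comes from the exact binomial interval of the reporter-positive share of a gene's UMIs. Genes used by the rule (Col1a1, Col2a1, Ifitm5, Ptprc and mitochondrial genes) were not tested. Up to 15 genes per direction were to be named, with at most 10% of UMIs in 1 cell and the same direction in the ratio of means over cells. Thinning to 5000 UMIs left out 1 reporter-negative cell and 306 of 1641 leukocytes. Doublets were kept (Scrublet, expected rate 10%, marked 588 barcodes) and left out in an alternative. The ratio code was tested on simulated data. Python 3.11.15 with numpy 2.4.6, scipy 1.17.1, pandas 2.3.3 and scanpy 1.11.5 was used. Intervals cover counting error only. Another 21 settings were fixed at the start and 2 were chosen after seeing the data, as was leaving out the cell with most UMIs of a gene at each WPRE step.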

Additional observations from a re-analysis of the deposited data

Results flagged for a closer look

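Dmp1 was at least 2-fold lower in reporter-positive mature osteoblasts (log2 ratio -1.46) and at least 2-fold higher in reporter-positive Ifitm5-low cells (2.58, counting interval 2.44 to 2.76), with 585 UMIs over 55 cells and 719 UMIs over 641 cells. Eln went the other way, at 2.41 in mature osteoblasts, where 1 cell held 93.4% of the reporter-positive UMIs, and at -4.16 in Ifitm5-low cells (17.3 against 326 CPM). Neither difference between the populations was tested, nor was the part of single cells in the sums over Ifitm5-low cells.

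EGFP, a sequence that the genotype does not name, had 11 UMIs in the mature osteoblasts, with 5 in reporter-positive, 5 in reporter-negative and 1 in the cells in between. A count of 0 would allow 3. Leukocytes and erythroid cells had 1 UMI each, the 14181 barcodes of the gene matrix 60, and the whole exogenous matrix 64. The origin of these UMIs was not tested.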

How the results depend on the processing

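The 2-fold limit, the depth and the choice of cells set how many genes were called. Against 18 higher genes, 8 were called after thinning to 5000 UMIs, 30 in cells at or above the median depth, 43 in cells below the median Ifitm5 level, 11 in those at or above it, and 39 with a minimum of 20 CPM or with none. Against 23 lower genes, 49 were called with a minimum of 20 CPM, 50 with none and 13 without the cells rich in blood RNA. In cells below the median depth 15 higher and 34 lower genes were called. Of these, 5 were among the 18 and 13 among the 23. In cells at or above the median depth, 15 of the 18 and 19 of the 23 were called again. The share of reporter-positive cells of 34.8% was 18.7% with more than 29 WPRE UMIs, 15.8% with a tdTomato UMI and 53.0% in Bglap-low cells. A lower minimum tests more genes and the share settings redefine who is counted. After thinning, Clu (2.56), Eln (2.5), Prss50 (2.42), Cxcl12 (2.14), Skap2 (1.33), Slpi (1.13) and Basp1 (1.11) stayed past 2-fold but missed the minimum of CPM or UMIs. Ibsp (0.90), Tubb2a (0.90), Slc38a4 (0.88), Gpx3 (0.83), Avpi1 (0.66) and Ackr3 (0.34) fell below 2-fold. For the other settings the cause was not tested. Among 51 genes followed, direction turned for 4 values of genes at least 2-fold apart: Col10a1 was at -0.10 with at most 5% mitochondrial UMIs, Aspn at 0.01 after thinning, and Mmp9 at -0.59 and Pdgfrb at -0.54 in cells at or above the median Ifitm5 level. Eln ranged from -1.55 to 3.88 and Hbb-bs from -5.08 to 1.77. Of 1173 log2 ratios of the 51 genes under 23 other settings, 875 stayed within the counting interval of the reported value. Bglap ranged from -3.74 to -1.09, Col3a1 from -4.32 to -3.09, Mmp13 from 1.56 to 3.22 and Rpl39l from -2.78 to -1.45. No paired analysis was possible because the 4 entries are 1 library. With 1 animal, the spread between mice is unknown, and genes under 50 CPM in both groups were not called.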
